A study of Mus musculus with 12 samples.

Results

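The comparison described here is that of cells labelled Ly6C with cells labelled Ly6G, both taken from the spleen of mice. Its members are the 10938 entries of the deposited expression table that have an Ensembl gene identifier and reach 1 FPKM in at least 3 of the 6 spleen libraries. FPKM is the number of sequenced fragments of a gene scaled for its length and for the total of mapped fragments in a library. The table holds 54674 entries, of which 54104 have an Ensembl identifier. By the same rule 12266 genes would be tested in the 6 tumor libraries of the series. The filter looks at the level and not at the difference, and the gene nearest to it on the inside was Nf1 (lowest of its 3 highest values 1.00039 FPKM), while Ang fell just outside (0.99981 FPKM). The groups were 3 libraries of Ly6C cells of spleen and 3 libraries of Ly6G cells of spleen, numbered 1 to 3, beside 3 and 3 from tumor. All were made from total RNA. The series names the Ly6G cells as polymorphonuclear and the Ly6C cells as monocytic myeloid-derived suppressor cells, and sets its work in the context of inhibitors of the MAPK pathway. The labels give neither the sorting gates, the strain, the age, the tumor model nor any treatment, and they do not say whether replicates came from separate animals, so p-values measure the spread between these samples, which may be technical.

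Myeloid-derived suppressor cells are myeloid cells, expanded in tumor-bearing hosts, that restrain T cells. In mice they are parted by surface antigens of the Ly6 family. Polymorphonuclear cells carry Ly6G, and monocytic cells carry much Ly6C and no Ly6G. The spleen of tumor-bearing mice is a site where granulocytes and monocytes are also produced. During granulopoiesis, cells first divide and make the proteases of primary granules, then stop dividing and make the proteins of secondary and tertiary granules, and last acquire chemokine receptors and inflammatory genes.

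Between the 6 libraries, the summed FPKM was 338757 to 353423 in Ly6C and 426182 to 449309 in Ly6G. S100a8 and S100a9, the subunits of calprotectin, took 14.6% to 22.8% of it in Ly6C and 23.3% to 30.5% in Ly6G. Depth is unknown. Of low values of genes with 1 transcript, 28.7% to 31.8% per library fell within 0.05 of a whole multiple of a common step. The step was chosen for the highest share, and an even spread would give 10%. Most values did not fall on such multiples, so reads could not be recovered. Pearson's r of the log2 values across genes, which are not independent replicates, was 0.959 to 0.982 within a label and 0.908 to 0.947 between labels. The first principal component (59.7% of the variance) parted the labels. The second (20.2%) set Ly6C replicate 2 and Ly6G replicate 3 apart from the other libraries.

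More genes were higher in the Ly6C libraries than in the Ly6G libraries. The difference between labels was tested in limma on log2(FPKM + 1), and a gene is said to pass where its adjusted p (Benjamini-Hochberg, over all genes) was under 0.05. Of the 10938 genes, 2047 (18.7%) passed as higher in Ly6C and 845 (7.73%) as higher in Ly6G. The difference was 2-fold or more on this scale, which understates changes of low genes, for 549 and 321 of them. The libraries of the labels did not overlap for 3553 genes higher in Ly6C (32.5%) and 1489 higher in Ly6G (13.6%). Of the genes tested, 217 passed the filter through the Ly6C libraries alone and 125 through the Ly6G libraries alone, so that these had to differ to some extent and their calls support nothing. Among the members of the lists and the genes named below, these were Vcan, Hgs, Arhgef37, Msr1, Trem2 and Map2k6 through Ly6C, and Hist2h2aa1, Pf4, Ccl5, Cd3g, Ebf1 and Ly6k through Ly6G. Of the genes that passed toward Ly6C, 57.6% were highest in Ly6C replicate 2, and of those toward Ly6G 67.3% were highest in Ly6G replicate 3. The split between the directions rests on the scaling. Of all passing genes, 70.8% were higher in Ly6C as deposited, 90.6% with every library rescaled to an equal sum (the TPM scale), 51.2% after quantile normalization and 48.1% with median-of-ratios factors. The median difference of all genes was 0.17, 0.43, 0.01 and -0.003 in these settings, and each difference below stands beside the 0.17. Across all 4 settings 1184 genes passed as higher in Ly6C and 451 as higher in Ly6G.

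**Figure D1:**
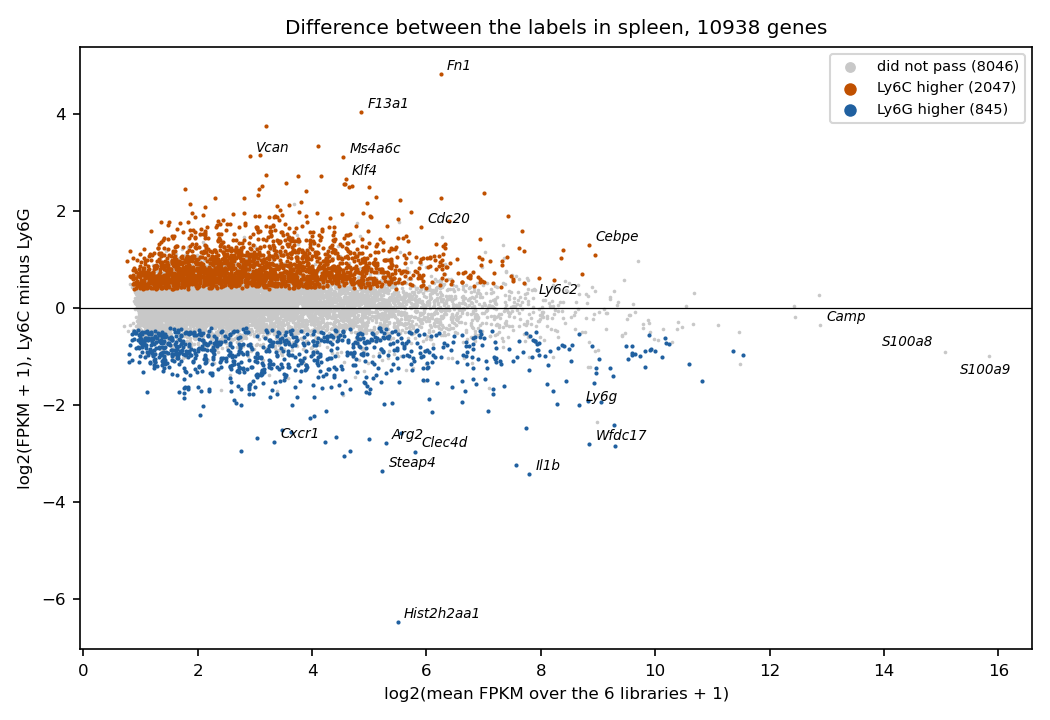
Each point is 1 of 10938 genes: the mean FPKM over the 6 spleen libraries on the horizontal axis (log2 of the mean + 1) and the difference in log2(FPKM + 1), Ly6C minus Ly6G, on the vertical axis. Orange points passed as higher in Ly6C (2047), blue points as higher in Ly6G (845), and the genes with the highest levels (S100a8, S100a9, Camp) did not pass.

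The gene of the Ly6G antigen followed the labels, while the genes of Ly6C did so weakly or not at all. Ly6g (chr15:75155240-75159126) stood at 157, 131 and 209 FPKM in the Ly6C libraries and 591, 644 and 717 FPKM in the Ly6G libraries, a 3.93-fold difference of means (log2 difference -1.99 ± 0.20, adjusted p = 0.00427). Here and below log2 differences are Ly6C minus Ly6G on the log2(FPKM + 1) scale, given ± SE. All Ly6G libraries lay above all Ly6C libraries, yet no Ly6C library was free of it. Ly6c2 (chr15:75108158-75111970), which encodes the main Ly6C antigen of monocytes and is made by neutrophils too, stood at 246, 272 and 223 FPKM in the Ly6C libraries and 236, 237 and 169.5 FPKM in the Ly6G libraries. These values overlapped and did not pass (0.22 ± 0.18, adjusted p = 0.404). Its close relative Ly6c1, at lower levels, was higher in all Ly6C libraries and passed (15.4, 14.6 and 13.1 FPKM against 10.1, 8.48 and 6.47 FPKM, 0.73 ± 0.18, adjusted p = 0.0233), a call kept in 10 of 18 alternative settings. Reads of such near-identical genes may be split between them. The summed level of 16 neutrophil markers was 86921, 68336 and 107238 FPKM in the libraries labelled Ly6C and 167289, 162964 and 130967 FPKM in those labelled Ly6G, far above that of the monocyte markers in both, and Ly6C libraries here means libraries so labelled. Most of this neutrophil sum came from S100a8 and S100a9 in every library. Of 8 tested genes of the Ly6 family, 4 passed as higher in Ly6G, among them Ly6a (Sca-1, -2.22 ± 0.31, adjusted p = 0.00607) and Ly6d, an antigen of B cell precursors and plasmacytoid cells (-2.15 ± 0.32, adjusted p = 0.00697), and 1 as higher in Ly6C. Ly6c1, that 1 gene, did not pass under median-of-ratios factors, after quantile normalization, or without Ly6C replicate 1 or 2 or Ly6G replicate 2 or 3. Ly6g is the antigen of the label, so its own call supports nothing. Ly6k of this family reached the filter through the Ly6G libraries alone. Over all genes 7.73% passed toward Ly6G and 18.7% toward Ly6C.

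The sequences before the starts of Ly6g and Ly6c2 are shown because these antigens define the labels. They are the 250 bases before the start in RefSeq (GRCm38.p6), 5′ to 3′, of Ly6g (chr15:75155011-75155260, plus strand) and Ly6c2 (chr15:75111972-75112221, minus strand). Capitals mark matches on either strand to GAGGAAGT, a site of PU.1, the master factor of myeloid genes, and to TTGCNNAA, a site of C/EBP factors. The match to GAGGAAGT lay 31 to 24 bases before the start in Ly6g and 108 to 101 bases before it in Ly6c2.
Ly6g: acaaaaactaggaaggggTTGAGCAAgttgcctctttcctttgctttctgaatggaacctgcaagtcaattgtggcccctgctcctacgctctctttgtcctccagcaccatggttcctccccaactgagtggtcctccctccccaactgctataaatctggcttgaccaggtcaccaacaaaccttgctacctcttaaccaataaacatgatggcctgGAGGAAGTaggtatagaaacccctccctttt
Ly6c2: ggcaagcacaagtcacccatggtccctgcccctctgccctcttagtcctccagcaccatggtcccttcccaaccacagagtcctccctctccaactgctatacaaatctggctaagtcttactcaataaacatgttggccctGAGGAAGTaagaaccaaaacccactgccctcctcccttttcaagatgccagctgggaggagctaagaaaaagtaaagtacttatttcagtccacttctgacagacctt
GAGGAAGT was found in 2.44% of all 27025 promoters of this length and in 2.88% of the 7526 tested genes with a sequence. It was found in 4.90% of 510 genes higher in Ly6G and in 2.5% of 1520 genes higher in Ly6C. The same 8 letters thus stand before both antigens. A match is a description of the sequence and not a site of binding.

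**Figure D2:**
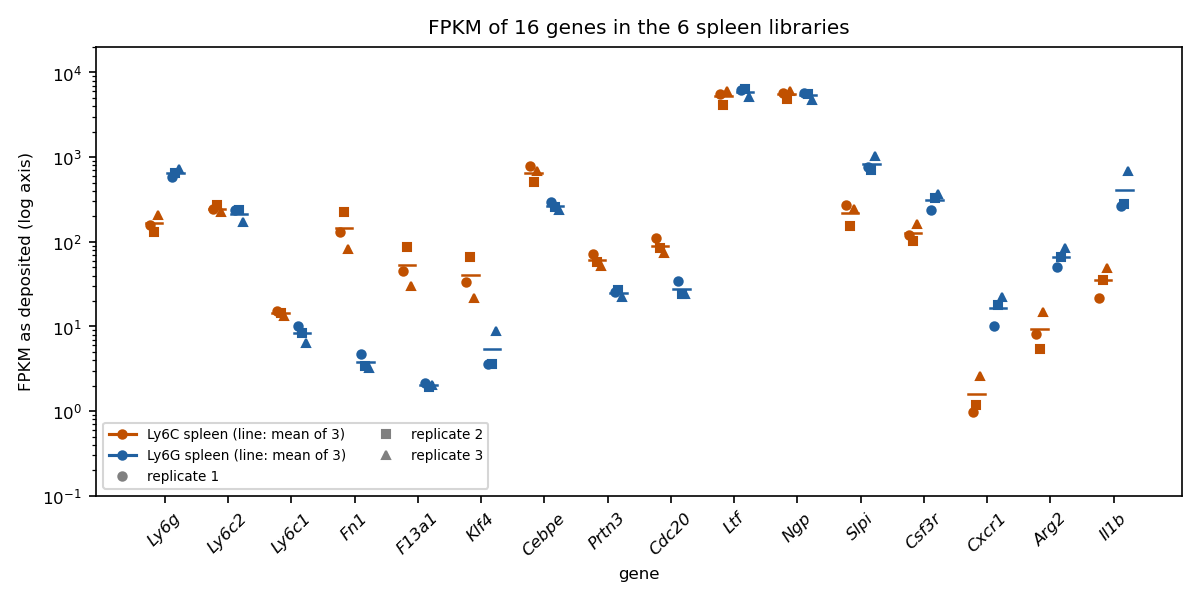
FPKM on a log axis for 16 genes in the 3 Ly6C (orange) and 3 Ly6G (blue) spleen libraries, with the replicate number as the symbol and the mean of 3 as a line. Ly6c2, Ltf and Ngp overlapped between the labels, while Fn1, F13a1, Klf4, Cebpe, Prtn3 and Cdc20 were higher in all Ly6C libraries and Ly6g, Slpi, Csf3r, Cxcr1, Arg2 and Il1b in all Ly6G libraries.

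The 10 largest differences toward Ly6C included those of Fn1, F13a1 and Vcan, which are known from classical monocytes. Fn1 (fibronectin, chr1:71585520-71653200) stood at 131, 226 and 81.9 FPKM in the Ly6C libraries and 4.79, 3.45 and 3.26 FPKM in the Ly6G libraries (38.2-fold, 4.82 ± 0.34, adjusted p = 0.00266). F13a1, the A subunit of coagulation factor XIII, stood at 45.2, 86.6 and 30.1 FPKM in the Ly6C libraries and 2.15, 1.93 and 2.06 FPKM in the Ly6G libraries (26.4-fold, 4.04 ± 0.34, adjusted p = 0.00346). Vcan, the matrix proteoglycan versican, stood at 7.37, 23.2 and 7.56 FPKM in the Ly6C libraries and 0.295, 0.357 and 0.448 FPKM in the Ly6G libraries, and it reached the filter through the Ly6C libraries alone. In each of these genes every Ly6C library lay far above every Ly6G library, and Ly6C replicate 2 was the highest of the 3. The same held for Ms4a6c (27.8, 73.9 and 22.1 FPKM against 2.49, 2.85 and 4.71 FPKM) and Ms4a6d (16.7, 38.5 and 12.8 FPKM against 1.91, 1.86 and 2.96 FPKM), membrane proteins of monocytes and macrophages, for Fam129b (25.1, 52.6 and 14.5 FPKM against 1.55, 1.56 and 2.15 FPKM) and for the guanine nucleotide exchange factors Arhgef37 (8.87, 26.99 and 7.59 FPKM against 0.244, 0.567 and 0.683 FPKM) and Arhgef10l (11.9, 26.7 and 7.01 FPKM against 0.666, 0.793 and 2.20 FPKM). Pde2a, a phosphodiesterase of cyclic nucleotides, was highest in replicate 1 (40.8, 19.7 and 29.02 FPKM against 3.97, 5.74 and 1.71 FPKM). The 10 genes chosen by size also held Hgs, a sorting protein of endosomes (12.9, 20.7 and 14.6 FPKM against 0.196, 0.205 and 0.290 FPKM). An entry of the same name on shared exons went the other way (13.3, 11.03 and 11.7 FPKM against 18.6, 18.2 and 23.1 FPKM), so how reads were divided between them is uncertain. Hgs and Arhgef37 also reached the filter through Ly6C alone. The calls of the other 7 held in each of 18 alternative settings.

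Among 16 markers of monocytes, 8 passed as higher in Ly6C and 0 as higher in Ly6G, with a median log2 difference of 1.56 beside 0.17 for all genes. Toward Ly6C 18.7% of all genes passed, and toward Ly6G 7.73%. Vcan is among the 8. In all 8, Ly6C replicate 2 was the highest library, as it was for 57.6% of all genes that passed toward Ly6C. S100a4, a calcium-binding protein of motile cells, stood at 155, 413 and 86.98 FPKM in the Ly6C libraries and 21.3, 27.5 and 62.5 FPKM in the Ly6G libraries (2.38 ± 0.60, adjusted p = 0.0273), and Ccr2, the receptor that draws monocytes out of the marrow, at 3.61, 8.81 and 1.61 FPKM in the Ly6C libraries and 1.09, 0.446 and 0.379 FPKM in the Ly6G libraries (1.61 ± 0.44, adjusted p = 0.0364). Every Ly6C library lay above every Ly6G library for both, but the call of S100a4 was kept in 12 of 18 and that of Ccr2, at values near the filter, in 9 of 17 alternative settings. Csf1r, the receptor of the monocyte growth factor, did not pass (51.2, 127 and 39.1 FPKM against 34.6, 31.2 and 60.7 FPKM, 0.64 ± 0.45, adjusted p = 0.318). Replicate 2 of Ly6C and replicate 3 of Ly6G were the highest of their groups, and the labels overlapped. The marker count was 5 without Ly6C replicate 1, Ly6G replicate 1 or Ly6G replicate 2. The summed level of the list was 827, 1620.4 and 623 FPKM in Ly6C and 373, 381 and 454 FPKM in Ly6G. In RNA from bulk cells, fewer cells of a type and less RNA per cell cannot be told apart.

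Of 14 transcription factors of the monocyte lineage, 3 passed as higher in Ly6C and 0 as higher in Ly6G, a share near the 18.7% of all genes that passed toward Ly6C. Klf4, needed to make monocytes, stood at 33.8, 67.1 and 21.6 FPKM in the Ly6C libraries and 3.61, 3.64 and 8.86 FPKM in the Ly6G libraries (2.66 ± 0.45, adjusted p = 0.0084), with all Ly6C libraries above all Ly6G libraries. Zeb2 (1.26 ± 0.36, adjusted p = 0.0411) and Klf13 (0.77 ± 0.17, adjusted p = 0.0199) were the others. Irf8, which directs precursors away from granulocytes, did not pass (16.5, 29.8 and 14.2 FPKM against 13.1, 12.2 and 25.5 FPKM, 0.24 ± 0.35, adjusted p = 0.634). The count was 1 without Ly6C replicate 1 or Ly6G replicate 2 and 6 without Ly6C replicate 3.

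Some genes of early granulocyte development passed toward Ly6C. Of 12 genes listed for control of the granulocyte lineage (factors, and Ltf as a late target), 5 passed as higher in Ly6C and 0 as higher in Ly6G. The shares of all genes in these directions were 18.7% and 7.73%. Cebpe, the factor of promyelocytes and myelocytes that switches on secondary granules, stood at 782, 506 and 682 FPKM in the Ly6C libraries and 294, 255 and 238 FPKM in the Ly6G libraries (1.30 ± 0.20, adjusted p = 0.00715). Cebpa, which opens the granulocyte program, stood at 50.04, 62.8 and 18.99 FPKM in the Ly6C libraries and 5.93, 4.64 and 7.99 FPKM in the Ly6G libraries (2.51 ± 0.42, adjusted p = 0.00836). Gfi1, a repressor needed for neutrophils, stood at 9.83, 5.92 and 6.53 FPKM in the Ly6C libraries and 4.43, 2.01 and 2.57 FPKM in the Ly6G libraries (1.09 ± 0.26, adjusted p = 0.0244). For all of these every Ly6C library was above every Ly6G library. Xbp1 (0.78) and Trib1 (0.68) passed with smaller differences. The count fell to 2 without Ly6C replicate 1, to 3 without Ly6C replicate 3 or any of the Ly6G libraries, and to 2 with median-of-ratios factors. Among 8 progenitor factors and receptors, Runx1 passed as higher in Ly6C (0.83 ± 0.16, adjusted p = 0.0129) and Kit as higher in Ly6G (1.44, 0.814 and 1.17 FPKM against 2.57, 2.86 and 3.15 FPKM).

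Primary granules carry the proteases made at the promyelocyte stage. Of 9 such genes, 5 passed as higher in Ly6C and 0 as higher in Ly6G (median 0.84), beside 18.7% and 7.73% of all genes. Prtn3, proteinase 3, stood at 72.7, 57.01 and 51.2 FPKM in the Ly6C libraries and 25.6, 26.9 and 22.4 FPKM in the Ly6G libraries (1.23 ± 0.17, adjusted p = 0.00603). Elane, neutrophil elastase, stood at 52.8, 53.8 and 47.2 FPKM in the Ly6C libraries and 23.4, 29.7 and 14.6 FPKM in the Ly6G libraries (1.203 ± 0.24, adjusted p = 0.014). Fcnb, the lectin ficolin B of immature granulocytes, stood at 253, 249 and 317 FPKM in the Ly6C libraries and 136, 126 and 86.6 FPKM in the Ly6G libraries (1.24 ± 0.21, adjusted p = 0.00836). For each of these every Ly6C library lay above every Ly6G library, and Ly6G replicate 3 was the lowest of all 6. Ms4a3 (0.84 ± 0.21, adjusted p = 0.0261) and Ctsc, which activates the proteases (1.15 ± 0.34, adjusted p = 0.0461), passed too, the latter kept in 8 of 18 alternative settings. Mpo, myeloperoxidase, did not pass (17.7, 15.6 and 18.9 FPKM against 14.4, 18.3 and 8.07 FPKM, 0.40 ± 0.27, adjusted p = 0.305). The count was 3 without Ly6C replicate 1 or Ly6G replicate 2. Of 10 markers of neutrophil precursors, which include Cebpe, Gfi1, Elane, Prtn3, Fcnb and Ms4a3, 6 passed as higher in Ly6C and 0 as higher in Ly6G.

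Secondary and tertiary granule genes, by contrast, stood at very high levels in both labels. Of 18, 1 passed as higher in Ly6C and 1 as higher in Ly6G, beside 18.7% and 7.73% of all genes. The median difference was -0.07. Ltf, lactoferrin, stood at 5544, 4125 and 6093 FPKM in the Ly6C libraries and 6287, 6435 and 5071 FPKM in the Ly6G libraries (-0.19 ± 0.23, adjusted p = 0.586). Ngp, neutrophilic granule protein, stood at 5683, 4898 and 6076 FPKM in the Ly6C libraries and 5801, 5618 and 4775 FPKM in the Ly6G libraries (0.04 ± 0.20, adjusted p = 0.899). Camp, the precursor of cathelicidin, stood at 7453, 5584 and 6797 FPKM in the Ly6C libraries and 8910.0, 7088 and 9305 FPKM in the Ly6G libraries (-0.35 ± 0.23, adjusted p = 0.285). None of these passed, which does not show that levels were equal. All 6 libraries held these neutrophil transcripts, the Ly6C libraries included. The members that passed were Cybb, the catalytic subunit of the NADPH oxidase, higher in Ly6C (148, 165 and 225 FPKM against 104, 130.5 and 88.7 FPKM, 0.72 ± 0.21, adjusted p = 0.044) with a call kept in 8 of 18 alternative settings, and Slpi, a secreted inhibitor of elastase, higher in Ly6G (269, 152 and 245 FPKM against 767, 713 and 1038 FPKM, -1.94 ± 0.26, adjusted p = 0.00591). Mmp8, neutrophil collagenase, missed the threshold (341, 155 and 349 FPKM against 747, 791 and 382 FPKM, -1.20 ± 0.40, adjusted p = 0.0605).

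**Figure D3:**
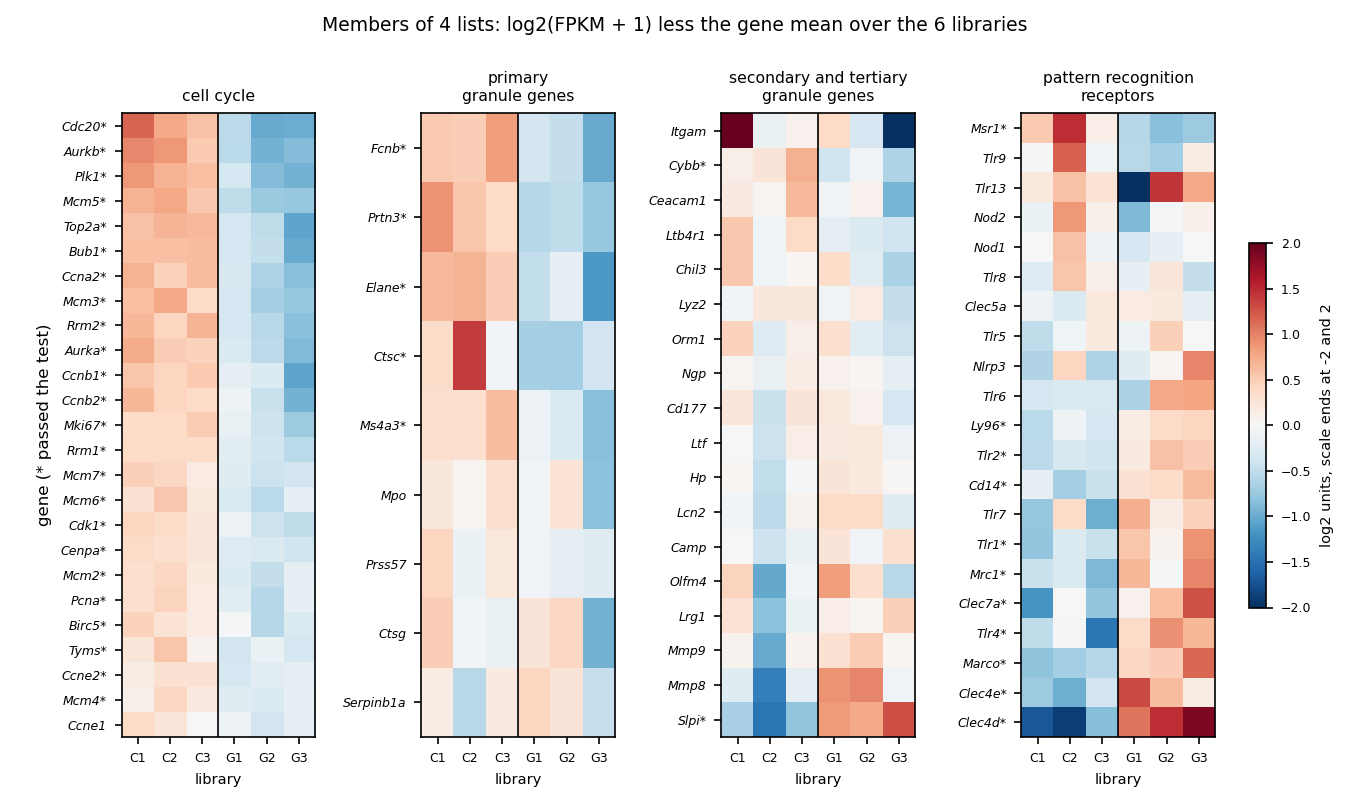
Each row is a gene and each column a library (C1 to C3 for Ly6C, G1 to G3 for Ly6G), colored by log2(FPKM + 1) less the mean of that gene over the 6 libraries, red for higher and blue for lower, with an asterisk for genes that passed. The 24 cell cycle genes that passed have higher means in the Ly6C columns, Clec4d is the pattern recognition receptor with the largest difference toward Ly6G, Slpi passed toward Ly6G and Cybb toward Ly6C among secondary and tertiary granule genes, and Ly6G replicate 3 was the lowest library for Prtn3, Elane, Fcnb and Ms4a3.

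Nearly all genes of the cell cycle list were higher in Ly6C. Of 25 tested, 24 passed as higher in Ly6C and 0 as higher in Ly6G, where 18.7% of all genes passed in that direction, and the libraries of the labels did not overlap for any of the 25 (32.5% of all genes). The median difference was 0.85. Cdc20, an activator of the anaphase-promoting complex, stood at 112, 84.2 and 74.3 FPKM in the Ly6C libraries and 34.1, 24.2 and 24.3 FPKM in the Ly6G libraries (1.67 ± 0.21, adjusted p = 0.00523). Plk1, a kinase of mitosis, stood at 77.001, 67.7 and 63.6 FPKM in the Ly6C libraries and 32.3, 22.5 and 21.1 FPKM in the Ly6G libraries (1.44 ± 0.19, adjusted p = 0.0058). Mcm5, a subunit of the replicative helicase, stood at 45.4, 48.2 and 40.6 FPKM in the Ly6C libraries and 19.2, 16.2 and 15.9 FPKM in the Ly6G libraries (1.34 ± 0.14, adjusted p = 0.00427). All Ly6C libraries lay above all Ly6G libraries for each, in genes of DNA synthesis and of mitosis alike. Differences of the other passing members ran from 0.46 (Mcm4) to 1.56 (Aurkb, a kinase of chromosome segregation), with Mki67, the antigen of dividing cells, at 30.2, 30.9 and 33.3 FPKM against 20.9, 17.1 and 13.7 FPKM. The levels in Ly6G were lower but not near 0. Ccne1, cyclin E1, did not pass (7.12, 6.29 and 5.17 FPKM against 4.75, 3.74 and 4.42 FPKM, 0.43 ± 0.16, adjusted p = 0.0797). The count was 25 when sums were made equal, 16 by median-of-ratios factors and 17 when quantile normalized, 12 without Ly6C replicate 1 and 15 without Ly6G replicate 2, with 0 in the other direction in all of these.

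The sequences before the starts of Cdc20, Plk1 and Mcm5 are shown because these genes were higher together and share a short motif known from promoters of dividing cells. They are again the 250 bases before the RefSeq start (GRCm38.p6), 5′ to 3′, of Cdc20 (chr4:118437344-118437593, minus strand), Plk1 (chr7:122159185-122159434, plus strand) and Mcm5 (chr8:75109259-75109508, plus strand). Capitals mark CCAAT, the box bound by NF-Y, and in Cdc20 also TTTGAA, the core of the element known as CHR, on either strand.
Cdc20: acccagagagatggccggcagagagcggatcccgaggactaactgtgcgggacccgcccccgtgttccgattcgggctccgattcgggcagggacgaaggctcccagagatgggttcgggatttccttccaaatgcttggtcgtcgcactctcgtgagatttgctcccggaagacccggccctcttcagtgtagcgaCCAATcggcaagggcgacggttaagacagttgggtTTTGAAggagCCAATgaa
Plk1: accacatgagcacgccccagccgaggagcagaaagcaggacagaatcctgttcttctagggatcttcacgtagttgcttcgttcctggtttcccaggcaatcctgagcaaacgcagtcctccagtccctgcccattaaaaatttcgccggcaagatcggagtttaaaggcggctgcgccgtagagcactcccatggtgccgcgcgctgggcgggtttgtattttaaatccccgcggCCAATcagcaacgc
Mcm5: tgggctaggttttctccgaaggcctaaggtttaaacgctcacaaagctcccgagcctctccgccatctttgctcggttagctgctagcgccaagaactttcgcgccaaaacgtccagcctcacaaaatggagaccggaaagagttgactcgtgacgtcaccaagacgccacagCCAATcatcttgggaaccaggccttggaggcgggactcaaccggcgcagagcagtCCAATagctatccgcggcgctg
CCAAT stood 14 to 10 bases before the start of Plk1, and 2 copies stood before Mcm5 and 2 before Cdc20. Of the 21 cell cycle genes with a sequence, 18 (85.7%) held CCAAT, against 37.0% of the 7526 tested genes and 34.5% of all promoters of this length. TTTGAA was found in 6 of 21 (28.6%), against 10.6% of the tested genes and 16.3% of all promoters. It was found in 10.8% of genes higher in Ly6C and in 14.7% of genes higher in Ly6G. TTTCCCGC, a site of E2F factors, was searched too and found in 1 of 21 (4.76%), against 2.02% of the tested genes. It was found in 3.55% of genes higher in Ly6C and in 0.98% of genes higher in Ly6G. Among the 1520 genes higher in Ly6C with a sequence, CCAAT was found in 39.7%, and among the 510 higher in Ly6G in 37.3%, both close to the share of all tested genes.

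The 10 largest differences toward Ly6G included those of Il1b, Steap4 and Clec4d. Il1b, the cytokine interleukin-1β, stood at 21.8, 35.2 and 48.9 FPKM in the Ly6C libraries and 263, 278 and 683 FPKM in the Ly6G libraries (11.6-fold, -3.42 ± 0.42, adjusted p = 0.00523). Steap4, a metalloreductase induced in inflammation, stood at 3.28, 3.89 and 11.8 FPKM in the Ly6C libraries and 44.6, 72.3 and 83.4 FPKM in the Ly6G libraries (10.6-fold, -3.35 ± 0.43, adjusted p = 0.00579). Clec4d, a C-type lectin receptor for mycobacterial glycolipid, stood at 9.63, 8.38 and 17.99 FPKM in the Ly6C libraries and 71.4, 95.3 and 125 FPKM in the Ly6G libraries (-2.95 ± 0.31, adjusted p = 0.00427). In each the lowest Ly6G library was far above the highest Ly6C library. Il1b has an antisense partner, and the strand setting of the counting is not given. Wfdc17, a small secreted protein of myeloid cells, stood at 97.9, 98.7 and 151 FPKM against 668, 818 and 915 FPKM (-2.79 ± 0.22, adjusted p = 0.00266), and Ifitm1, an interferon-induced membrane protein, at 158, 82.7 and 251 FPKM against 877, 1083 and 1297 FPKM (-2.84 ± 0.38, adjusted p = 0.00603). Arg2, the mitochondrial arginase, stood at 8.09, 5.36 and 14.7 FPKM against 50.3, 65.8 and 83.7 FPKM (-2.77 ± 0.34, adjusted p = 0.00516), Cxcr1, a receptor of neutrophil chemokines, at 0.990, 1.19 and 2.58 FPKM against 10.2, 17.7 and 22.04 FPKM (-2.76 ± 0.32, adjusted p = 0.00472), and Igfbp6, which binds insulin-like growth factors, at 3.63, 3.61 and 3.46 FPKM against 21.4, 23.9 and 50.8 FPKM (-2.75 ± 0.30, adjusted p = 0.00436). The calls of these 8 held in each of 18 alternative settings. The other members of the 10 largest are uncertain. Hist2h2aa1 was listed at 0 in all Ly6C libraries and at 83.5, 72.4 and 109 FPKM in Ly6G, but it has a near-identical copy, Hist2h2aa2, and shares exon sequence with other entries. Rpl21 (20.6, 1.92 and 0.588 FPKM against 41.8, 36.4 and 33.9 FPKM) overlaps 2 small RNA genes and kept its call in 9 of 18 alternative settings.

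The sequence before the start of Steap4 is shown as that of a gene with one of the largest differences toward Ly6G (chr5:7960222-7960471, plus strand, RefSeq, GRCm38.p6). Capitals mark a match to GGGNNTTTC, part of the site of NF-kB, 225 to 217 bases before the start, and to TTGCNNAA, a site of C/EBP, 87 to 80 bases before it, each on either strand.
Steap4: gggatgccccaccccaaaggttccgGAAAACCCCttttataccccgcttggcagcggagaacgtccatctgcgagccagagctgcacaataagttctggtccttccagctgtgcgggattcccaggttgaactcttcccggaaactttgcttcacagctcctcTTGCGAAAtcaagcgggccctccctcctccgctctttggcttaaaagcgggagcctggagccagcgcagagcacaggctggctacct
The first was found in 3.68% of the tested genes, 3.79% of all 27025 promoters of this length and 4.9% of genes higher in Ly6G, the second in 7.52%, 9.55% and 8.63%. No match to these motifs or to GAGGAAGT was found in the same window of Il1b, Clec4d, Wfdc17, Ifitm1 or Igfbp6, which says only that these letters are not there.

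Markers of neutrophils were higher in Ly6G in part. Of 16, 6 passed as higher in Ly6G and 0 as higher in Ly6C (median -0.99), beside 7.73% and 18.7% of all genes. The list also holds Camp, Ltf, Ngp and Mmp8 of the granule genes above, and it does not measure maturity. Csf3r, the receptor of G-CSF, stood at 120.0, 103 and 161 FPKM in the Ly6C libraries and 235, 332 and 367 FPKM in the Ly6G libraries (-1.27 ± 0.23, adjusted p = 0.0108). Stfa2l1, a stefin of neutrophils, stood at 109, 27.8 and 78.4 FPKM in the Ly6C libraries and 429, 345 and 291 FPKM in the Ly6G libraries (-2.48 ± 0.46, adjusted p = 0.0112). Cxcr2, the chemokine receptor that lets neutrophils leave the marrow, stood at 36.3, 24.7 and 56.3 FPKM in the Ly6C libraries and 72.7, 119.9 and 75.7 FPKM in the Ly6G libraries (-1.21 ± 0.32, adjusted p = 0.0314). The groups did not overlap for any of the 3, and the call of Cxcr2 was kept in 10 of 18 alternative settings. S100a9 stood at 38884, 30904 and 49134 FPKM in the Ly6C libraries and 85720.0, 77210.4 and 68073 FPKM in the Ly6G libraries (-0.98 ± 0.31, adjusted p = 0.0516), and S100a8 at 21758, 18406 and 31325 FPKM in the Ly6C libraries and 51322, 51501 and 31353 FPKM in the Ly6G libraries (-0.91 ± 0.34, adjusted p = 0.0866). Neither passed, although all Ly6G libraries lay above all Ly6C libraries for both. The lowest Ly6G and the highest Ly6C library lay close together for S100a8. The list's count was 3 without Ly6G replicate 2. Among the 8 S100 genes, S100a6 (-1.71 ± 0.22, adjusted p = 0.00537), S100a11 (-1.51 ± 0.19, adjusted p = 0.00579) and S100a13 (-0.53 ± 0.12, adjusted p = 0.0205) passed as higher in Ly6G, and S100a4 and S100a10 (1.99 ± 0.47, adjusted p = 0.0222) as higher in Ly6C. The latter count was 0 without Ly6C replicate 1, Ly6G replicate 1 or Ly6G replicate 2, and 1 without Ly6C replicate 2.

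Of 17 chemotactic receptors, 6 passed as higher in Ly6G and 2 as higher in Ly6C, while on the TPM scale the counts were 4 and 4. Over all genes 7.73% passed toward Ly6G and 18.7% toward Ly6C. Higher in Ly6G were the formyl peptide receptors Fpr1 (46.5, 23.4 and 53.6 FPKM against 151, 179 and 128 FPKM, -1.94 ± 0.31, adjusted p = 0.00769) and Fpr2 (-1.16), the chemokine receptors Cxcr1, Cxcr2 and Ccr1 (-1.22), and Ptafr, the receptor of platelet-activating factor (-0.72). Higher in Ly6C were Ccr2 and the chemerin receptor Cmklr1 (2.25, 5.65 and 2.42 FPKM against 0.650, 0.390 and 1.19 FPKM), both with replicate 2 highest and both under the threshold without Ly6G replicate 1 or 2. Of 19 receptors of growth factors and cytokines, 2 passed in each direction. Csf2ra and Csf2rb, the chains of the GM-CSF receptor, were higher in Ly6C (851, 599 and 569 FPKM against 318, 289 and 321 FPKM for Csf2ra, 1.10 ± 0.19, adjusted p = 0.00944). Csf3r and the decoy receptor Il1r2 (-1.004 ± 0.30, adjusted p = 0.0452) were higher in Ly6G. The Ly6C count was 1 without Ly6G replicate 3, and the Ly6G count 1 with any single library but Ly6C replicate 1 left out.

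Cytokines and chemokines were split. Of 16 tested, 8 passed as higher in Ly6G and 4 as higher in Ly6C, beside 7.73% and 18.7% of all genes. Besides Il1b, the Ly6G side held Ccl6 (37.7, 71.4 and 45.5 FPKM against 124, 142 and 165 FPKM, -1.50 ± 0.24, adjusted p = 0.00804), oncostatin M (Osm, -1.08 ± 0.22, adjusted p = 0.0136), the interleukin-1 receptor antagonist Il1rn (-1.05 ± 0.17, adjusted p = 0.00765), Cxcl2 (-0.95 ± 0.28, adjusted p = 0.0445), Csf1 (-1.12 ± 0.27, adjusted p = 0.023), Tnfsf14 (-1.03) and Ccl5 (-1.17). The Ly6C side held Ccl9 (17.7, 42.95 and 13.1 FPKM against 2.40, 3.14 and 4.36 FPKM, 2.42 ± 0.41, adjusted p = 0.00839), Ccl3 (17.3, 24.5 and 13.3 FPKM against 5.34, 3.95 and 6.94 FPKM, 1.58 ± 0.26, adjusted p = 0.008), Tgfb1 and Vegfa (0.68 ± 0.18, adjusted p = 0.0345). Ly6G replicate 3 was the highest library for 7 of the 8, beside 67.3% of all genes that passed toward Ly6G, and Ccl5 reached the filter through Ly6G alone. The Ly6G count was 5 without Ly6C replicate 1. The Ly6C count was 2 without Ly6C replicate 1, Ly6G replicate 1 or Ly6G replicate 2.

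Of 21 receptors that sense microbes, 10 passed as higher in Ly6G and 1 as higher in Ly6C (median -0.64), and with each scaling the Ly6G count stayed at 8 to 11. The shares of all genes in these directions were 7.73% and 18.7%. Cd14, a co-receptor of lipopolysaccharide often used to mark monocytes, stood at 207, 145 and 171 FPKM in the Ly6C libraries and 287, 299.9 and 359.6 FPKM in the Ly6G libraries (-0.86 ± 0.18, adjusted p = 0.0154). Tlr2, the receptor of lipoproteins, stood at 23.6, 27.2 and 25.9 FPKM against 39.2, 51.9 and 48.7 FPKM (-0.83 ± 0.15, adjusted p = 0.0103), and Tlr4, that of lipopolysaccharide, at 3.08, 4.70 and 1.13 FPKM against 6.59, 9.97 and 8.16 FPKM (-1.31 ± 0.35, adjusted p = 0.0318). Clec4e (-1.39) and Clec7a (-1.30) were further lectin receptors that passed. The macrophage receptors Marco (-1.37) and Mrc1 (-1.08) passed too, with calls kept in 17 of 17 and 10 of 17 alternative settings. Mrc1 is itself one of the macrophage markers given below, and the part of macrophages was not tested. The scavenger receptor Msr1 was the member on the Ly6C side (2.37, 5.52 and 1.54 FPKM against 0.570, 0.300 and 0.408 FPKM), and it reached the filter through the Ly6C libraries alone. The Ly6G count was 4 without Ly6C replicate 1 and 5 without Ly6G replicate 3. Of 22 genes of the interferon response, 7 passed as higher in Ly6G and 0 as higher in Ly6C (median -0.44), among them Irf1 (12.4, 10.3 and 8.67 FPKM against 29.1, 26.2 and 33.4 FPKM, -1.42 ± 0.17, adjusted p = 0.00477), Rsad2 (-1.70 ± 0.28, adjusted p = 0.00833) and Gbp2 (-1.83 ± 0.36, adjusted p = 0.0133), and for all 7 Ly6G replicate 3 was the highest library (67.3% of all genes that passed toward Ly6G). GAAANNGAA, the core of sites of interferon regulatory factors, was found on either strand in 10.6% of the 510 promoters of genes higher in Ly6G, 4.67% of the 1520 of genes higher in Ly6C, 6.64% of all tested and 7.16% of all 27025. Of 12 Fc and complement receptors, 3 passed as higher in Ly6G, namely Fcgr4 (-1.12 ± 0.16, adjusted p = 0.00658) and the signalling chains Fcer1g and Tyrobp, and Fcgr1 as higher in Ly6C (1.68 ± 0.40, adjusted p = 0.0237), and on the TPM scale the counts turned to 1 and 2. After quantile normalization the difference of Tyrobp was 0.03. The Ly6G count was 1 without Ly6C replicate 1 or 3 or Ly6G replicate 1 or 3, and Fcgr1 did not pass without Ly6C replicate 1 or Ly6G replicate 1 or 2.

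Effectors linked with suppression of T cells passed in both directions. Of 14 tested, 3 passed as higher in Ly6G and 2 as higher in Ly6C, beside 7.73% and 18.7% of all genes. Besides Arg2, Ptgs2, cyclooxygenase 2 (2.10, 4.60 and 2.86 FPKM against 7.25, 7.09 and 23.2 FPKM, -1.53 ± 0.44, adjusted p = 0.0411), and Entpd1, the ectonucleotidase CD39 (9.25, 8.02 and 11.8 FPKM against 22.3, 26.1 and 30.6 FPKM, -1.36 ± 0.18, adjusted p = 0.00603), were higher in Ly6G. The call of Ptgs2 was kept in 10 of 18 alternative settings. It was lost on the TPM scale, without any single Ly6C library and without Ly6G replicate 1. Tgfb1 (43.5, 69.9 and 34.3 FPKM against 15.96, 13.99 and 26.5 FPKM, 1.33 ± 0.31, adjusted p = 0.0224) and Wars (0.82 ± 0.20, adjusted p = 0.0245), which is an aminoacyl-tRNA synthetase rather than a suppressive enzyme, were higher in Ly6C, but 0 of these 2 passed without Ly6G replicate 1 or 2 and 1 without Ly6C replicate 1 or 2. Arg1, the arginase most used to define these cells, did not reach the filter, with 0.0858, 0.126 and 0.139 FPKM in the Ly6C libraries and 0.144, 0.0480 and 0 FPKM in the Ly6G libraries. Nos2, the inducible nitric oxide synthase, stood at 7.92, 2.78 and 9.15 FPKM against 13.8, 19.8 and 7.36 FPKM and did not pass (-0.97 ± 0.45, adjusted p = 0.147). Cybb of the NADPH oxidase, given above as higher in Ly6C, did not pass with any single library left out.

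The MAPK pathway, which carries signals from RAS through RAF and MEK to ERK, had few passing genes. Of 27 genes of the cascade, 4 passed as higher in Ly6C and 2 as higher in Ly6G, shares below or near those of all genes (18.7% and 7.73%). With median-of-ratios factors the counts turned to 2 and 3, they were 3 and 3 after quantile normalization, and 13 and 1 on the TPM scale. Mapk3, which encodes ERK1, stood at 201, 136 and 199 FPKM in the Ly6C libraries and 190.1, 152 and 182 FPKM in the Ly6G libraries (0.02 ± 0.20, adjusted p = 0.944). Map2k1, which encodes MEK1, stood at 39.6, 37.2 and 36.1 FPKM in the Ly6C libraries and 31.1, 30.97 and 29.6 FPKM in the Ly6G libraries (0.29 ± 0.12, adjusted p = 0.107). Neither passed. The genes that passed as higher in Ly6C were those of kinases next to the core: Mapkapk3 (22.9, 34.9 and 25.7 FPKM against 11.4, 13.3 and 9.27 FPKM, 1.22 ± 0.20, adjusted p = 0.00825) and Mapkapk2 (179.8, 178 and 133 FPKM against 78.04, 69.4 and 85.6 FPKM, 1.06 ± 0.17, adjusted p = 0.00787), which act below p38, Map2k3 above p38 (0.45 ± 0.14, adjusted p = 0.0495), and Rps6ka1 below ERK (0.66 ± 0.18, adjusted p = 0.0349). Nras (-0.52 ± 0.15, adjusted p = 0.0376) and Mapk11, a p38 kinase (-1.002 ± 0.19, adjusted p = 0.0115), were higher in Ly6G. Mapk14, the main p38 kinase, did not pass (0.44 ± 0.28, adjusted p = 0.269). The Ly6C count was 2 without Ly6C replicate 3 or Ly6G replicate 2 or 3, and the Ly6G count 1 without Ly6C replicate 1 or any of the Ly6G libraries. Map2k3 kept its call in 7 of 18 alternative settings and lost it with any single library left out. Rps6ka1 kept its call in 10 of 18 and Nras in 9 of 18. Mapkapk2 and Mapkapk3 kept theirs in all 18, and Mapk11 in 17 of 17.

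Of 25 genes that respond to ERK or restrain it, 6 passed as higher in Ly6C and 1 as higher in Ly6G, shares near those of all genes (18.7% and 7.73%). Jun, a subunit of AP-1, stood at 404, 304 and 215 FPKM in the Ly6C libraries and 123, 77.2 and 101 FPKM in the Ly6G libraries (1.58 ± 0.27, adjusted p = 0.00858). All Ly6C libraries lay above all Ly6G libraries, but Jun has an antisense partner. Fosl1 (16.9, 8.69 and 12.6 FPKM against 5.48, 2.95 and 3.40 FPKM, 1.46 ± 0.27, adjusted p = 0.0114) and Phlda1 (1.07 ± 0.25, adjusted p = 0.0226) were further targets. The feedback genes Dusp6 (56.6, 58.2 and 44.002 FPKM against 34.3, 33.5 and 40.1 FPKM, 0.54 ± 0.16, adjusted p = 0.0429), Dusp7 (0.99) and Spred2 (0.84 ± 0.14, adjusted p = 0.008) passed too, and Ier3 was the member higher in Ly6G (-0.87 ± 0.18, adjusted p = 0.0155). Dusp1 (464, 489.8 and 381 FPKM against 525, 474 and 546 FPKM) and Fos (536, 717 and 394 FPKM against 564, 483 and 668 FPKM) were high in both labels and did not pass. The Ly6C count was 3 without Ly6C replicate 1 or Ly6G replicate 2. Jun is also in a list of 12 genes known to be induced when tissue is dissociated, of which Jun, Atf3 and the near-identical Hspa1a and Hspa1b passed as higher in Ly6C and 0 as higher in Ly6G. That count was 1 without Ly6G replicate 1 or 2 and 2 without Ly6C replicate 1. The summed level of that list overlapped between the labels (2434.6 to 3491.5 FPKM in Ly6C and 2328.9 to 4024.0 FPKM in Ly6G), and its part in the result was not tested.

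Genes of the unfolded protein response passed as higher in Ly6C in 8 of 21 cases and as higher in Ly6G in 1. Over all genes 18.7% and 7.73% passed in these directions. Sdf2l1, a partner of chaperones of the endoplasmic reticulum, stood at 44.96, 61.5 and 32.8 FPKM in the Ly6C libraries and 9.52, 9.49 and 13.8 FPKM in the Ly6G libraries (1.96 ± 0.25, adjusted p = 0.00579). Hspa5, the chaperone BiP, stood at 51.7, 67.7 and 60.2 FPKM against 33.4, 38.98 and 31.8 FPKM (0.77 ± 0.15, adjusted p = 0.0137). Atf3, a stress factor, stood at 50.7, 148 and 33.5 FPKM against 9.32, 9.27 and 23.1 FPKM (2.23 ± 0.56, adjusted p = 0.0278). Ly6C replicate 2 was the highest library for all 8, beside 57.6% of all genes that passed toward Ly6C. The count was 1 without Ly6G replicate 1, 3 to 5 without each of the other libraries, and 3 with median-of-ratios factors. Of 10 genes of the nuclear shape of neutrophils, 4 passed as higher in Ly6C, among them the lamin Lmnb2 (19.2, 18.6 and 14.5 FPKM against 5.67, 4.65 and 4.26 FPKM, 1.65 ± 0.16, adjusted p = 0.00427) and Sun2 (263, 176 and 246 FPKM against 118, 104 and 103 FPKM, 1.05 ± 0.18, adjusted p = 0.0095), which links the nucleus to the cytoskeleton, and 2 did without Ly6C replicate 1 or Ly6G replicate 2. In the BCL2 family the pro-apoptotic Bak1 (1.01 ± 0.17, adjusted p = 0.00835) and Bbc3 (1.02 ± 0.30, adjusted p = 0.0416) were higher in Ly6C, and Mcl1 (149.5, 132 and 144 FPKM against 254, 243 and 309 FPKM, -0.91 ± 0.15, adjusted p = 0.00827), Bcl2l1 (-1.01 ± 0.21, adjusted p = 0.0155), Bcl2a1a and Bcl2a1b, which protect cells, in Ly6G. That makes 2 and 4 of 15, turning to 6 and 3 on the TPM scale. The Ly6G count was 2 without Ly6C replicate 1 or 3 or Ly6G replicate 1 or 3, the Ly6C count 1 without Ly6C replicate 1 or 2 or Ly6G replicate 1 or 2, and Bcl2a1a and Bcl2a1b are near-identical copies.

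Metabolic and adhesion lists varied in how many members passed, beside 18.7% of all genes toward Ly6C and 7.73% toward Ly6G. Glycolysis genes passed 2 and 2 of 21, toward Ly6C and toward Ly6G in that order here and below, with the hexokinases Hk1 and Hk2 (16.98, 18.6 and 22.5 FPKM against 8.26, 11.5 and 6.72 FPKM, 1.07 ± 0.21, adjusted p = 0.0125) higher in Ly6C and the glucose transporter Slc2a1 (40.6, 28.6 and 41.3 FPKM against 52.9, 63.4 and 65.7 FPKM, -0.72 ± 0.18, adjusted p = 0.0281) and Aldoc higher in Ly6G. These counts were 6 and 0 on the TPM scale and 1 and 4 with median-of-ratios factors. Oxidative phosphorylation genes passed 2 and 0 of 25 (1 and 1 with median-of-ratios factors), ribosome biogenesis genes 0 and 0 of 19 (1 and 0 by limma at an unadjusted p under 0.05), MHC class I genes 0 and 0 of 12 (1 and 2 unadjusted), cathepsin and lysosome genes 3 and 2 of 21 (10 and 1 on the TPM scale, 1 and 2 with median-of-ratios factors), lipid genes 3 and 5 of 18 (5 and 4 on the TPM scale), prostaglandin and leukotriene genes 1 and 2 of 14 (7 and 1 on the TPM scale) and adhesion molecules 1 and 3 of 15 (4 and 1 on the TPM scale). Leaving out 1 library moved most of these small counts. Without Ly6C replicate 1 the counts toward Ly6C were 1 for glycolysis, 0 for oxidative phosphorylation, 0 for cathepsins and lysosome, 1 for lipid genes, 0 for prostaglandin and leukotriene genes and 0 for adhesion. Without Ly6C replicate 3 they were 1, 4, 5 and 1 for the first 4 lists, and toward Ly6G the glycolysis count was 0 or 1 and the lipid count 2 to 5 as each library was left out. Without Ly6G replicate 1 or 2, oxidative phosphorylation and adhesion were at 0 toward Ly6C. Adhesion was at 1 toward Ly6G without Ly6C replicate 1 or Ly6G replicate 2. Among the lipid genes, Scd1 and Fabp5 were higher in Ly6G (-1.07 ± 0.21, adjusted p = 0.0125 and -1.14 ± 0.21, adjusted p = 0.0108). Among adhesion molecules, Selplg, the ligand of selectins, was higher in Ly6G (125, 108 and 112 FPKM against 215, 226 and 307 FPKM, -1.09 ± 0.18, adjusted p = 0.00787) and the integrin Itgb7 in Ly6C (58.6, 115 and 37.8 FPKM against 13.7, 14.1 and 25.4 FPKM, 1.84 ± 0.41, adjusted p = 0.0191).

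**Figure D4:**
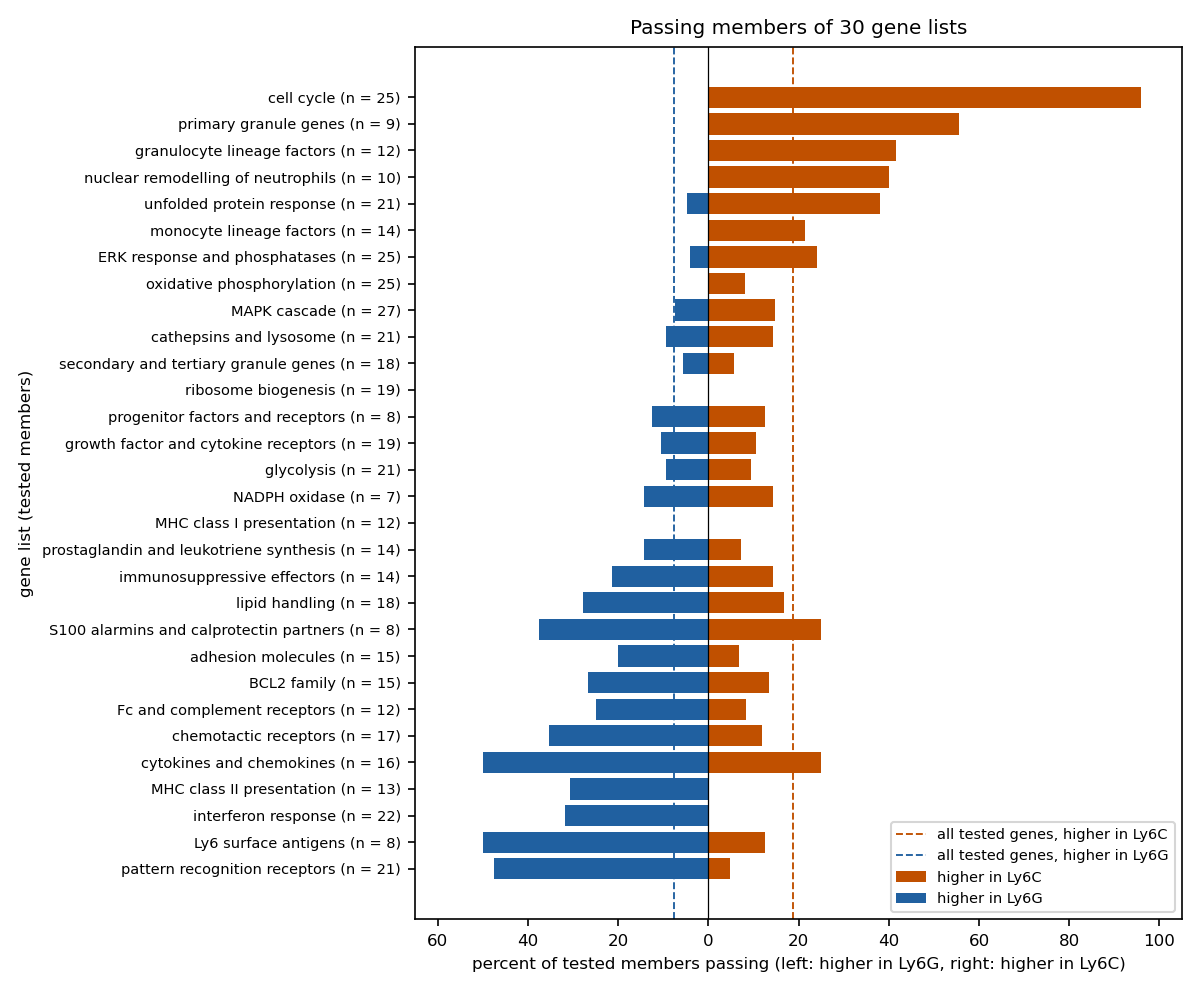
Bars give the percent of tested members of each of 30 gene lists that passed, to the right for higher in Ly6C (orange) and to the left for higher in Ly6G (blue), and dashed lines give the same for all 10938 genes (18.7% and 7.73%). Cell cycle genes stand far beyond the line toward Ly6C, while pattern recognition receptors, cytokines and Ly6 antigens reach farthest toward Ly6G. The Ly6 antigens include Ly6g, the antigen of the label.

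Most tested markers of B cells, T cells, erythroid cells and red pulp macrophages passed as higher in Ly6G. Of 13 B cell markers, 10 passed as higher in Ly6G and 0 as higher in Ly6C (median -1.34). Their summed level was 272, 418 and 368 FPKM in Ly6C and 806, 933 and 1382 FPKM in Ly6G, and 0 of the 13 were at 0 in every library. Cd79a, a chain of the B cell receptor, stood at 65.6, 88.2 and 77.6 FPKM in the Ly6C libraries and 186, 189.8 and 365 FPKM in the Ly6G libraries (-1.60 ± 0.28, adjusted p = 0.00937). Ly6G replicate 3 was the highest library for all 10 that passed, beside 67.3% of all genes that passed toward Ly6G. Over all genes 7.73% passed toward Ly6G and 18.7% toward Ly6C. Ebf1 of the B cell list and Cd3g of the T cell list reached the filter through the Ly6G libraries alone. T cell markers passed 6 of 7 (summed level 8.92 to 12.8 FPKM in Ly6C and 25.2 to 43.1 FPKM in Ly6G, with Cd3e and Cd4 under the filter). Erythroid markers passed 9 of 13, with 335 to 1201 FPKM in Ly6C and 1529.4 to 4268 FPKM in Ly6G, where the globin genes are near-identical copies, and red pulp macrophage markers 5 of 7, with 92.6 to 130.1 FPKM and 181 to 349 FPKM. All of these were toward Ly6G, and the B cell, T cell and erythroid counts were 5 to 8, 5 to 7 and 5 to 9 with each library left out. The B cell count was 5 without Ly6C replicate 1 and 6 without Ly6G replicate 3, the erythroid count 5 without Ly6C replicate 3, Ly6G replicate 1 or Ly6G replicate 3, and the red pulp count was 1 without Ly6G replicate 1, 2 without Ly6G replicate 3 or any 1 Ly6C replicate, and 7 without Ly6G replicate 2.

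Of 13 genes of MHC class II presentation, H2-Aa, H2-Eb1, H2-Oa and H2-Ob passed as higher in Ly6G (4 of 13) and 0 as higher in Ly6C. The shares of all genes in these directions were 7.73% and 18.7%. H2-Aa stood at 49.998, 79.5 and 59.4 FPKM in the Ly6C libraries and 165, 175 and 329.6 FPKM in the Ly6G libraries (-1.76 ± 0.30, adjusted p = 0.00858), and Ly6G replicate 3 was highest for all of them (67.3% over all genes that passed toward Ly6G). This count was 2 without Ly6C replicate 1 and ran from 2 to 6 as each library was left out. The part of B cells in it was not tested. The remaining marker lists held few tested genes. Macrophage markers passed 2 toward Ly6C (Fcgr1 and Trem2) and 3 toward Ly6G (C1qa, C1qb and Mrc1) of 12, the latter all highest in replicate 3, and 0 passing without Ly6G replicate 1 or 3 but 5 without Ly6G replicate 2. Toward Ly6G passed also 2 of 3 plasmacytoid dendritic cell markers, 2 of 2 of basophils and mast cells (Hdc and Kit), 1 of 5 of eosinophils (Ccr3), 1 of 1 of platelets (Pf4), 1 of 1 of fibroblasts (Thy1, which T cells express too) and 1 of 4 of plasma cells (Mzb1), where Xbp1 passed toward Ly6C. Trem2 reached the filter through Ly6C alone and Pf4 through Ly6G alone, so their calls support nothing. No marker of conventional dendritic cells (0 of 4), NK cells (0 of 1) or endothelium (0 of 1) passed, and no epithelial marker reached the filter. Of 20 genes shared by leukocytes, 6 passed toward Ly6G and 1 toward Ly6C, which turned to 1 and 3 on the TPM scale, and of 13 mitochondrially encoded genes 6 passed toward Ly6G and 0 toward Ly6C (3 with any library but Ly6C replicate 2 left out, 10 without that). The pan-leukocyte count toward Ly6G was 1 without Ly6C replicate 1 or Ly6G replicate 1 and 2 without Ly6G replicate 2 or 3.

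**Figure D5:**
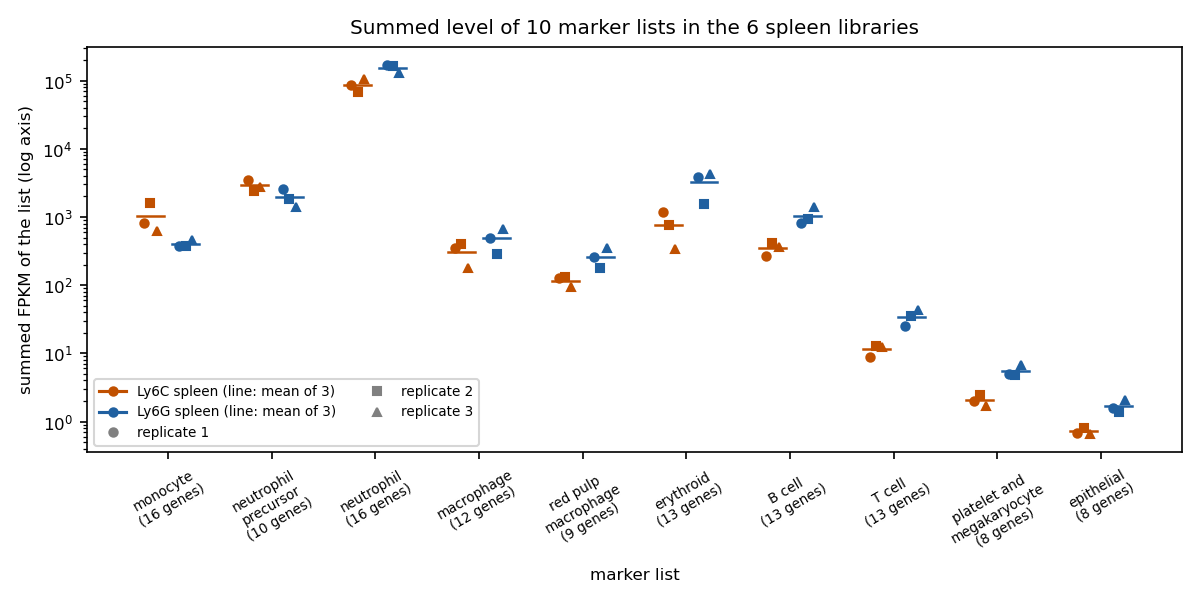
Summed FPKM on a log axis of 10 marker lists in the 3 Ly6C (orange) and 3 Ly6G (blue) spleen libraries, with the replicate number as the symbol and the mean of 3 as a line. Neutrophil markers exceed all others in both labels, monocyte markers are highest in Ly6C replicate 2, and the erythroid, B cell and T cell sums are higher in every Ly6G library than in every Ly6C library.

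The difference between the labels was not the same in tumor. An interaction term in a fit of all 12 libraries tested the spleen difference against the tumor difference for the same 10938 genes, and 2926 (26.8%) passed. The tumor difference, taken from the same fit of 12 libraries, passed for 1854 (17%) of these genes, which were filtered on spleen. Spleen calls are those of the fit of 6 libraries. Of 528 genes that passed in both tissues, 301 kept their direction and 227 had the opposite one. Most genes and list members below were picked by their spleen result, which favors a smaller difference in tumor. Fn1 differed by 4.82 in spleen and by 0.32 in tumor (interaction adjusted p = 0.00317), and Klf4 by 2.66 and 0.09 (0.0105). Csf2ra turned from 1.10 to -1.49 (0.00117) and Ccl3 from 1.58 to -1.89 (0.000307). Of the 24 cell cycle genes that passed in spleen, 6 also passed toward Ly6C in tumor, and the interaction passed for 10. All 6 neutrophil markers higher in Ly6G in spleen were higher in Ly6G in tumor too, and the interaction passed for 0 of them, with the lowest adjusted p at 0.0961 for Il1r2. All 6 chemotactic receptors higher in Ly6G passed in the same direction in tumor, with the interaction passing for Ptafr (0.0151). For the 10 B cell markers, 0 passed in tumor and the interaction passed for 8.

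Some abundant genes varied widely within a label. Of 3793 genes with a mean of at least 10 FPKM, 41 had a 5-fold range or more within 1 label, and 4 of these passed. C5ar1, the receptor of complement C5a, stood at 88.2, 6.03 and 7.27 FPKM in the Ly6C libraries and 118, 96.8 and 4.66 FPKM in the Ly6G libraries. Itgam, which encodes CD11b, the integrin used to gate myeloid cells, stood at 97.9, 13.3 and 15.5 FPKM in the Ly6C libraries and 19.6, 11.3 and 1.40 FPKM in the Ly6G libraries. Retnlg, resistin-like gamma of neutrophils, stood at 1783, 690.1 and 1643 FPKM in the Ly6C libraries and 554, 6436 and 6070.1 FPKM in the Ly6G libraries. In each of the 3 the libraries of the labels overlapped, and none passed.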

How the data were processed

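RNA of 3 Ly6C and 3 Ly6G spleen libraries was compared, with 3 and 3 tumor libraries for 1 test. The authors deposited gene-level FPKM values. Tools named in the submitters' processing notes are featureCounts 1.5.0-p3 and HISAT2 2.0.5, with the build GRCm38. The strand setting is not given in the sources used here. FPKM scales to each library's mapped reads, so a few abundant genes lower all others. Genes that have an Ensembl identifier and reach 1 FPKM in 3 or more of the 6 libraries entered the test on log2(FPKM + 1) with limma 3.58.1 in R 4.3.3 (eBayes with trend, two-sided, Benjamini-Hochberg adjusted p under 0.05, 4 residual and 3.4 prior degrees of freedom). The script was tested on simulated data. Alternatives were 2 pseudocounts, 2 filters, 3 scalings, all 12 libraries, a replicate block, no trend, array weights, S100a8 and S100a9 removed, and each library left out.

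Depth is unknown, so no counting intervals are given. The members and the 51 gene lists were chosen with earlier results of these data known, and no p was adjusted over a list. Genes are named by rule: the 10 largest differences each way among passing genes whose libraries do not overlap, the extremes of each of 30 functional lists, a fixed set of 28 genes, and the 3 most abundant genes of each of 21 marker lists. Further list members (71 genes) were named after their values were seen. Of 10935 symbols tested, 7526 had a RefSeq promoter (GRCm38.p6), searched over the 250 bases before the start. Figures were drawn with Matplotlib 3.10.9. Values of a few list members are not reported here.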

Additional observations from a re-analysis of the deposited data

Results flagged for a closer look

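The difference between the labels differed between spleen and tumor for 2926 of 10938 genes (limma interaction term over 12 libraries, adjusted p under 0.05), and the genes described above that passed this test are given here with the spleen difference less the tumor difference on the log2(FPKM + 1) scale. The spleen and tumor differences follow in brackets in that order. Among monocyte genes these values were Fn1 4.50 (4.82 and 0.32), F13a1 3.64 (4.04 and 0.40), Vcan 2.15 (3.14 and 0.99), Ms4a6c 1.99 (3.12 and 1.13) and Klf4 2.57 (2.66 and 0.09). The interaction adjusted p was 0.00317 for Fn1 and 0.000929 for F13a1.

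Among the other genes with the largest differences toward Ly6C, the values were Fam129b 3.16 (3.35 and 0.19), Arhgef37 2.85 (3.17 and 0.32), Arhgef10l 2.61 (2.74 and 0.14), Pde2a 2.13 (2.72 and 0.59) and Hgs 5.98 (3.77 and -2.22). Hgs is uncertain because 2 entries share exons. Genes with the largest differences were chosen by their spleen values, so a smaller tumor difference was partly fixed by that choice. Arhgef37, Hgs and Vcan also reached the filter through the Ly6C spleen libraries alone. The tumor means of Arhgef37 were 0.381 FPKM in Ly6C and 0.104 FPKM in Ly6G, where log2(FPKM + 1) can show little difference. Among granulocyte genes the values were Cebpe 2.08 (1.30 and -0.78), Gfi1 1.16 (1.09 and -0.07), Prtn3 1.21 (1.23 and 0.02) and Cybb 0.90 (0.72 and -0.17). Among genes higher in Ly6G in spleen they were Il1b -1.67 (-3.42 and -1.75), Clec4d -1.38 (-2.95 and -1.57), Wfdc17 -1.24 (-2.79 and -1.55) and Igfbp6 -3.01 (-2.75 and 0.26). For a MAPK phosphatase, a chemokine, a receptor chain of GM-CSF and a lipid mediator receptor they were Dusp1 0.95 (-0.22 and -1.16), Ccl3 3.47 (1.58 and -1.89), Csf2ra 2.59 (1.10 and -1.49) and Ptafr 0.96 (-0.72 and -1.68).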

How the results depend on the processing

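Among 18 alternatives, 0 of the 2892 calls turned to the opposite call, but their number moved. The counts of genes higher in Ly6C and in Ly6G were 1120 and 516 without the filter, 4445 and 462 on the TPM scale, 1294 and 1233 after quantile normalization, 1271 and 1374 with median-of-ratios factors and 3240 and 1451 with array weights. With S100a8 and S100a9 removed and sums made equal they were 3143 and 688. With each library left out they were 945 to 1784 and 414 to 720, and the interaction count was 2143 to 3169. The interaction count was 4670 on the TPM scale. With a replicate block the counts were 707 and 334, and 1030 of the 2892 calls remained. Deviations of same-numbered libraries from their group means correlated at 0.29, -0.28 and -0.39. Those of differently numbered libraries correlated at -0.24 to 0.47. With 3 libraries a label these values cannot show whether same-numbered libraries were paired, and the labels give only a number. Of 197 genes named by rule or afterwards, 99 kept their direction and side of the threshold in every alternative that tested them, where direction is read for called values. Tyrobp went from -0.61 to 0.026 after quantile normalization. The cause was not tested. Of the calls, 1361 remained without the filter, 2509 with sums made equal, 2116 with median-of-ratios factors and 1355 to 2100 with a library left out. With 3 libraries a label and unknown depth, a gene that missed the threshold is not shown to be equal.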
